A study of Mus musculus with 15 samples.

Results

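The genes described here are 40 genes of the cell cycle, 17 that act in S phase, when DNA is copied, and 23 that act in mitosis, when the copied chromosomes are parted. They were taken by gene symbol from the 55536 genes of a table of read counts, and all 40 symbols were found. The table came from bulk RNA sequencing of whole blood of 15 male wild-type C57Bl/6 mice, all 10 months old. Of these, 8 were offspring of mothers given tributyltin (TBT), an organotin compound, in their drinking water up to weaning, at 0.5 mg per kg of body weight and day (3.07 µM in the water). The other 7 were offspring of vehicle controls. Exposure had thus ended long before the blood was taken, and the labels name no litters, so mice of a group may share a mother. Only vehicle 3 is labelled as having had a liver tumor, and for the other mice no tumor status is stated. Libraries are named by group and by the number in their label.

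A cell that divides first licenses its replication origins with the MCM2 to MCM7 helicase, then fires them, makes deoxynucleotides and copies its DNA, and the genes for these steps are driven in late G1 and S phase by E2F factors. Genes for the later steps, such as condensing chromosomes, building the spindle, holding the checkpoint and destroying cyclins, are held down by the DREAM complex in resting cells and switched on in G2 by B-MYB and FOXM1, largely through promoter elements called CHR and CCAAT boxes. Most cells of circulating blood do not divide. Red cells lose their nucleus after their last division, and young red cells (reticulocytes) and platelets still carry messenger RNA made by their precursors in marrow and, in mice, spleen.

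The 2 classes could be told apart by letters in their promoters, a property that was not used to choose them. RefSeq (build GRCm38.p6) gave a promoter, 250 bases before to 50 bases after the gene start, for 33 of the 40 genes. Mcm7 and Prc1 each had an additional promoter, and the counts for the classes below are of genes, whereas the shares of all promoters are of promoters. Both strands were searched for CHR letters (TTTGAA or TTCGAA), for the CCAAT box bound by NF-Y, for E2F letters (TTCCCGC or TTGGCGC or TTCGCGC or TTGCCGC) and for the GC box GGGCGG. The reverse complement of TTGGCGC ends in CCAA and so can overlap a CCAAT box. CHR letters were found in 15 of 19 mitotic promoters (78.9%) and 2 of 14 S phase promoters (14.3%), against 19.2% of all 32851 promoters in the table. E2F letters had the opposite order, with 8 of 14 S phase promoters (57.1%), 3 of 19 mitotic promoters (15.8%) and 9.57% of all promoters. CHR and CCAAT letters stood together in 14 of 19 mitotic promoters (73.7%) and 2 of 14 S phase promoters (14.3%), against 7.52% of all promoters. GC boxes did not set the classes apart, with 84.2% of mitotic, 78.6% of S phase and 35.7% of all promoters. These matches are descriptions of letters and not evidence of binding in blood.

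**Figure D1:**
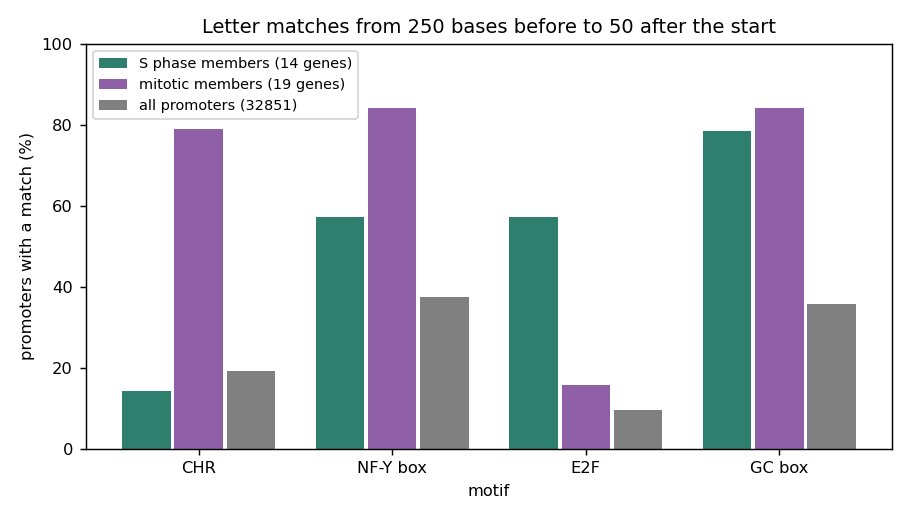
Share of promoters (vertical axis, percent) with at least 1 letter match for 4 motifs (horizontal axis), for 14 S phase genes, 19 mitotic genes and all 32851 promoters; the bar labelled NF-Y box is the CCAAT box. The CHR bar is at 78.9% for mitotic and 14.3% for S phase genes, and the E2F bar at 15.8% and 57.1%.

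The 120 bases before the start are printed for 4 mitotic and 4 S phase genes, 5′ to 3′ on the gene's strand, because the classes differ there and these genes recur in the results. Capitals mark CHR, CCAAT and E2F letters on either strand, so that ATTGG is a CCAAT box read backwards and TTCAAA a CHR read backwards. The mitotic promoters are those of Top2a (topoisomerase II alpha, which untangles chromosomes; chr11:99024190-99024309, minus strand), Mki67 (the Ki-67 coat of mitotic chromosomes; chr7:135716380-135716499, minus strand), Kif11 (the motor that pushes spindle poles apart; chr19:37376262-37376381, plus strand) and Cdk1 (the kinase that starts mitosis; chr10:69352913-69353032, minus strand).
Top2a: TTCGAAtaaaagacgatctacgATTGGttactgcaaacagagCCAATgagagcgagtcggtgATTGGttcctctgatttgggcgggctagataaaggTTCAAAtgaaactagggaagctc
Mki67: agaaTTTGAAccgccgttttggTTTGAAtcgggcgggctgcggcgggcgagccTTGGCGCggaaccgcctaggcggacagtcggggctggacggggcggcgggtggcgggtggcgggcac
Kif11: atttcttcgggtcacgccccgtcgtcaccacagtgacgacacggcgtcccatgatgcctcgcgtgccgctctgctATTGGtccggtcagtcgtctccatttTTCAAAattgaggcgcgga
Cdk1: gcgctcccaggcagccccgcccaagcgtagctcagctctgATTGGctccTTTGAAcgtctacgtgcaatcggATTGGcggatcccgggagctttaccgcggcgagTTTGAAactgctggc
The S phase promoters are those of Mcm6 (chr1:128359706-128359825, minus strand), Mcm3 (chr1:20820313-20820432, minus strand) and Mcm2 (chr6:88898781-88898900, minus strand), 3 subunits of 1 helicase, and of Rrm1 (the large subunit of ribonucleotide reductase; chr7:102441575-102441694, plus strand).
Mcm6: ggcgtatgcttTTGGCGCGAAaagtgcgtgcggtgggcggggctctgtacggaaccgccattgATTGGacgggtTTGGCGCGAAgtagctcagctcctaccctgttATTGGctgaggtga
Mcm3: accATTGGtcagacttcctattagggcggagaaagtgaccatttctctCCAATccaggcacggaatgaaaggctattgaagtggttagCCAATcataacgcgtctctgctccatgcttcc
Mcm2: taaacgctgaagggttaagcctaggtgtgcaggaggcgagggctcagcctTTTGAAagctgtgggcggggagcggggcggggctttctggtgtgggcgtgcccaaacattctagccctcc
Rrm1: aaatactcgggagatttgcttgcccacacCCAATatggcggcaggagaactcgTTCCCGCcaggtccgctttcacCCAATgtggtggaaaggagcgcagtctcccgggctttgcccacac
In Top2a and Kif11 the CHR letters nearest the start begin 23 and 19 bases before it, and in Cdk1 15 bases before it. Mcm6 holds 4 E2F matches in pairs that overlap, and Mcm3 holds 3 CCAAT boxes and no E2F letters in these 120 bases (its E2F match lies elsewhere in the longer window).

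Levels are given as counts scaled to one common library size (counts per 1e6, CPM) on library sizes scaled by TMM, a method that sets most genes equal between libraries, unless library totals are named. Libraries held 6.03 M to 11.99 M counts, of which the 40 genes took 606 to 1005 CPM of all counts. Haemoglobin transcripts took 28.7% to 50.8% of the counts, and markers of red cells, platelets, neutrophils, monocytes and lymphocytes were read in all libraries, with none of the marker lists holding a gene at 0 throughout. Apart from the other 13 libraries stood TBT 2 and TBT 8. Their TMM factors were 0.404 and 0.528, against 0.736 to 1.58 elsewhere, so that on the TMM scale every one of their genes is raised relative to its share of the library. For this reason results are also given on library totals, and without these 2 libraries.

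Of the 40 genes, 36 had enough counts to be tested, 16 S phase and 20 mitotic. The 4 left out were Gins2, Cdk1, Plk1 and Ccnb1, with 34, 118, 120 and 123 counts over all 15 libraries. Cdk1 ranged from 0.316 to 2.31 CPM in TBT (median 0.739) and from 0.175 to 1.04 CPM in vehicle (median 0.659). Ccnb1, which encodes cyclin B1, the partner of CDK1, ranged from 0.330 to 2.63 CPM (median 0.522) and from 0.175 to 2.19 CPM (median 0.659).

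Per kilobase of exon, the mitotic genes held both the highest and nearly the lowest levels. Ube2c, the ubiquitin-conjugating enzyme of the anaphase-promoting complex, had the highest level, with 75.2 ± 16.6 CPM per kb over the vehicle libraries (SD, n = 7) and 85.6 ± 61.6 over the TBT libraries (SD, n = 8). Nusap1, a protein that bundles spindle microtubules, followed with 56.8 ± 6.63 and 66.6 ± 51.8 CPM per kb. Their vehicle ranges overlapped (57.1 to 101.9 and 43.7 to 63.1 CPM per kb), so this order does not exceed the spread between mice. Both stood far above Mki67, next with 11.2 ± 2.71 CPM per kb in vehicle, whose highest vehicle library reached 14.9. Ccne2 (6.60 ± 2.31), Mcm3 (6.44 ± 1.70), Pcna (5.94 ± 0.739), Bub1b (5.14 ± 1.70), Ccna2 (5.07 ± 0.878), Mcm4 (4.54 ± 0.643) and Ccnb2 (4.23 ± 1.32) came next in vehicle, and neighbours in this order differed by less than the larger of their SDs. At the other end stood Gins2 (0.0714), Cdk1 (0.120), Ccnb1 (0.243), Tyms (0.270) and Bub1 (0.300 CPM per kb). The median mitotic level was below the median S phase level in all 7 vehicle libraries, at 0.377 to 0.896 of it (mean 0.569 ± 0.163, SD, n = 7), or a mean of 0.762 with the longest transcript in place of all exons as the length. The same ratio was 2.13 in TBT 2 and 1.33 in TBT 8, and 0.402 to 0.625 in the other 6 TBT libraries.

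Among the licensing and fork genes, Mcm6 kept the steadiest level on the TMM scale. Cdc6, which loads the helicase with CDT1, had coefficients of variation of 76.1% in TBT and 49.1% in vehicle. Mcm6 (chr1:128331590-128359664) ran from 11.8 to 14.3 CPM in TBT (median 12.997) and from 11.6 to 13.9 CPM in vehicle (median 13.02), a coefficient of variation of 5.98% in TBT and 6.86% in vehicle. For this gene TBT 2 was at 11.97 CPM, within the range of the others, and TBT 8 was the highest library at 14.3 CPM, just above vehicle 2 at 13.9 CPM. Mcm2 ran from 7.79 to 10.8 CPM (median 8.89) in TBT and from 4.38 to 10.8 CPM (median 8.17) in vehicle, with vehicle 7 lowest. Mcm4 ran from 13.7 to 22.8 CPM (median 16.5) and from 12.5 to 18.8 CPM (median 16.2), with TBT 2 highest. Mcm5 ran from 3.50 to 6.60 CPM (median 5.88) in TBT and from 4.20 to 8.09 CPM (median 7.29) in vehicle, with TBT 2 lowest.

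Mcm3 (chr1:20802968-20820312), whose product sits in the same ring as MCM6, did not share this steadiness on the TMM scale. It ran there from 17.1 to 77.4 CPM in TBT (median 19.5) and from 16.9 to 37.0 CPM in vehicle (median 22.7). As CPM of all counts the order of relative spread turned. Mcm6 was then at 14.1 ± 5.43 in TBT and 13.1 ± 3.32 in vehicle (SD), and Mcm3 at 26.5 ± 3.64 and 23.6 ± 4.10. The levels that follow are again on the TMM scale. TBT 2 and TBT 8, at 77.4 and 56.1 CPM, lay above all other libraries, and vehicle 4 was highest among the rest. The ratio of Mcm3 to Mcm6, which needs no library size, was 8.04 in TBT 2 and 4.89 in TBT 8 per kb, and 1.51 to 3.84 in the other 13 libraries. Pcna, the sliding clamp of DNA polymerase, ran from 9.93 to 15.8 CPM in TBT (median 12.2) and from 11.7 to 16.9 CPM in vehicle (median 14.1). Without TBT 2 and TBT 8, the other 6 TBT libraries held Pcna at 12.2 ± 0.263 CPM (SD, n = 6). Cdt1, which loads the helicase, ran from 3.21 to 8.36 CPM (median 6.11) and from 5.61 to 9.16 CPM (median 6.68). Mcm7 and Cdc6 ran from 8.41 to 19.3 CPM and from 1.08 to 9.64 CPM over all libraries, and the groups overlapped in each of these genes.

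Among genes for nucleotide supply the pair that forms ribonucleotide reductase split in a similar way. Rrm1 stood between 7.53 and 14.4 CPM in all 15 libraries, with TBT 2 and TBT 8 at 12.3 and 9.84 CPM. Rrm2, the subunit that is destroyed and remade in each cycle, reached 26.3 CPM in TBT 2 and 13.5 CPM in TBT 8 and stood between 3.10 and 9.46 CPM elsewhere. Tk1 (thymidine kinase) and Tyms (thymidylate synthase) ran from 5.96 to 10.9 CPM and from 0.970 to 3.28 CPM over all libraries.

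The cyclins of the G1 to S step parted too. Ccne1 ran from 3.28 to 6.83 CPM in TBT (median 4.89) and from 4.03 to 5.20 CPM in vehicle (median 4.88). Ccne2 (chr4:11191351-11204779), which encodes the second cyclin E, ran from 11.9 to 94.9 CPM in TBT (median 17.9) and from 10.6 to 36.7 CPM in vehicle (median 23.0). The highest libraries were again TBT 2 and TBT 8, followed by vehicle 4. Per kb, the ratio of Ccne2 to Ccne1 was 14.6 in TBT 2 and 13.9 in TBT 8 and 1.55 to 6.06 in the other 13 libraries. Ccne2 shares 609 exon bases with Ints8 on the opposite strand, and how featureCounts treated strand is not given in the sources used here, so part of its counts may belong to Ints8. E2f1, a factor that drives S phase genes, had few counts (1 to 23 per library) and ran from 0.268 to 3.50 CPM in TBT (median 1.86) and from 0.175 to 2.65 CPM in vehicle (median 0.847).

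On the TMM scale the mitotic genes varied more between mice than the S phase genes. edgeR's biological coefficient of variation, its estimate per gene of the spread between libraries of a group, had a median of 0.493 over 20 mitotic genes and 0.190 over 16 S phase genes, against 0.231 over all 13364 tested genes. It lay above that overall median for 19 of 20 mitotic and 6 of 16 S phase genes. On library totals the order turned for the mean log2 level of each class, whose SD was 0.20 in TBT and 0.19 in vehicle for mitotic genes and 0.49 and 0.30 for S phase genes, against 0.77 and 0.29 and 0.23 and 0.16 on the TMM scale. Mki67 (chr7:135689784-135716361) ran from 43.6 to 346 CPM in TBT (median 102) and from 69.7 to 150 CPM in vehicle (median 121). It was read at 346 CPM in TBT 2 and 311 CPM in TBT 8, and the other 6 TBT libraries, at 43.6 to 127 CPM, overlapped the vehicle range and reached below it. Top2a (chr11:98992943-99024189) was also highest in TBT 2 and TBT 8 and lowest in TBT 7, and ran from 12.3 to 69.2 CPM in TBT (median 22.2) and from 13.9 to 34.6 CPM in vehicle (median 24.1).

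Of the cyclins and kinases of mitosis, Ccna2 (cyclin A2; chr3:36564865-36572150) ran from 12.2 to 103 CPM in TBT (median 22.8) and from 16.7 to 25.8 CPM in vehicle (median 19.7). TBT 2 was at 103 CPM and TBT 8 at 67.7 CPM, and the next library, TBT 3, was at 26.9 CPM. Ccnb2 (cyclin B2) ran from 1.52 to 15.5 CPM and from 4.17 to 8.94 CPM, and the kinase gene Aurkb from 0.633 to 3.21 CPM and from 0.876 to 2.44 CPM. Aurka, the related kinase of spindle poles, ran from 0.791 to 2.08 CPM in TBT (median 1.58) and from 0.621 to 1.62 CPM in vehicle (median 1.32), and here TBT 2 and TBT 8 were not the highest. A pseudogene of Ccnb2 was listed with 392 counts over all libraries, so reads may have been shared with it. Ccna2 overlaps Exosc9 on the opposite strand by 510 exon bases.

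For the spindle checkpoint and kinetochore, Bub1b (chr2:118598211-118641591), which encodes the checkpoint protein BUBR1, ran from 10.5 to 61.9 CPM in TBT (median 16.0) and from 10.5 to 34.5 CPM in vehicle (median 22.8). Birc5 (survivin, of the chromosomal passenger complex) ran from 1.07 to 14.3 CPM (median 2.12) and from 0.833 to 4.85 CPM (median 1.74). The kinetochore genes Cenpe and Cenpf reached 13.7 and 20.4 CPM in TBT 2 and 12.7 and 17.6 CPM in TBT 8. In Ndc80, the microtubule coupler of the kinetochore, these 2 libraries parted. It ran from 2.89 to 8.21 CPM in TBT (median 6.25) and from 3.15 to 7.4998 CPM in vehicle (median 4.57), with TBT 8 lowest of all 15 libraries and TBT 2 at 7.30 CPM.

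Among spindle motors and midzone proteins, Nusap1 (chr2:119618298-119651244) ran from 76.4 to 715 CPM in TBT (median 196) and from 177 to 256 CPM in vehicle (median 229). TBT 7 was lowest and TBT 2 highest of all 15 libraries, and the vehicle range lay inside that of TBT. Tpx2, an activator of Aurora A, ran from 5.19 to 54.3 CPM and from 6.04 to 19.96 CPM, and Kif11 from 3.87 to 27.4 CPM and from 3.89 to 9.35 CPM. Kif23 and Prc1, which build the midzone where the cell will be cut, reached 54.3 and 23.4 CPM in TBT 2 and 32.2 and 21.02 CPM in TBT 8. Ube2c (chr2:164769898-164778822) ran from 58.8 to 540 CPM in TBT (median 163) and from 148 to 265 CPM in vehicle (median 180), again with TBT 7 lowest and TBT 2 highest. Its partner in the anaphase ligase, Cdc20, had only 3 to 26 counts per library.

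**Figure D2:**
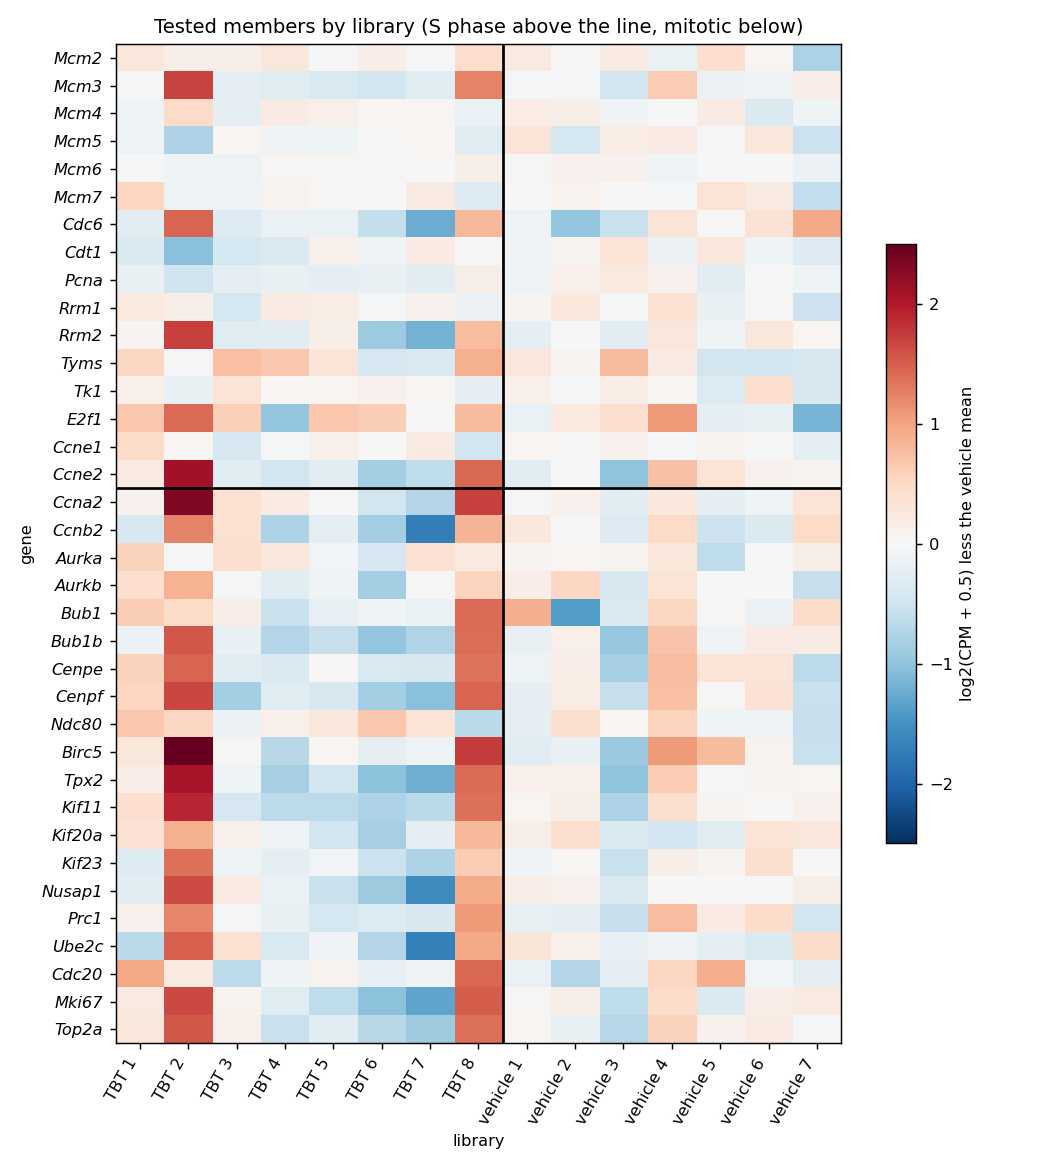
Level of the 36 tested genes (rows) in each of 15 libraries (columns), as log2(CPM + 0.5) less the vehicle mean, red above and blue below it; S phase genes stand above the horizontal line, mitotic genes below. The columns of TBT 2 and TBT 8 are red for most mitotic genes and for Mcm3, Rrm2 and Ccne2, while Mcm6 is near white in all 15 columns.

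TBT 2 and TBT 8 both lay above all 13 other libraries for 16 of the 20 tested mitotic genes and for 3 of the 16 tested S phase genes (Mcm3, Rrm2 and Ccne2), where 17.4% of all tested genes did so. The exceptions among mitotic genes were Aurka, Bub1, Ndc80 and Cdc20. Of the 16, Kif20a shares 1271 exon bases with Cdc23 on the opposite strand (median counts per library 17 and 145) and Prc1 shares 911 with Rccd1 (98 and 45), so with the strand setting unknown part of their counts may belong to these neighbours. For no gene of the 40 did both lie below all others on this scale, as they did for 12.1% of all tested genes. On library totals, which do not apply the low TMM factors of these libraries, both lay above all others for Ccne2, Ccna2, Birc5 and Tpx2, where 0.868% of all tested genes did so. Both lay below all others on library totals for Mcm5, Mcm6, Mcm7, Cdt1, Pcna, Rrm1, Tk1, Ccne1 and Ndc80, as did 55.8% of all tested genes. Mki67 then took 139 and 164 CPM of all counts in TBT 2 and TBT 8, within or just above the 68.6 to 152 CPM of the other libraries. Mcm6 took 4.83 and 7.51 CPM, below the 9.56 to 20.3 CPM of the others. As a class, mitotic transcripts were abundant relative to S phase transcripts in these 2 libraries. A scaling factor acts on all genes of a library alike, so this contrast is nearly the same on both scales by construction.

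That contrast was summed per library as the mean centred log2 CPM of the tested S phase genes less that of the tested mitotic genes, a measure that hardly depends on library size. It was -0.93 in TBT 2 and -0.77 in TBT 8, and -0.23 to 0.58 in the other 13 libraries. Vehicle 3, the mouse with a tumor label, had the highest value, and TBT 7 and TBT 6 followed with 0.49 and 0.48. The TBT mean was -0.03 ± 0.55 (SD, n = 8) and the vehicle mean 0.03 ± 0.27 (SD, n = 7). Without TBT 2 and TBT 8 the TBT mean was 0.25 ± 0.24 (SD, n = 6), a difference from vehicle within 1 SD. The S phase score alone ran from -0.32 to 0.39 over all libraries and the mitotic score from -0.73 to 1.32. The ratio of Mki67 to Mcm2 per kb was 27.3 in TBT 2, 20.05 in vehicle 7 and 19.9 in TBT 8, and 3.87 to 14.8 in the others, so for this pair vehicle 7, lowest in Mcm2, joined the high libraries.

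**Figure D3:**
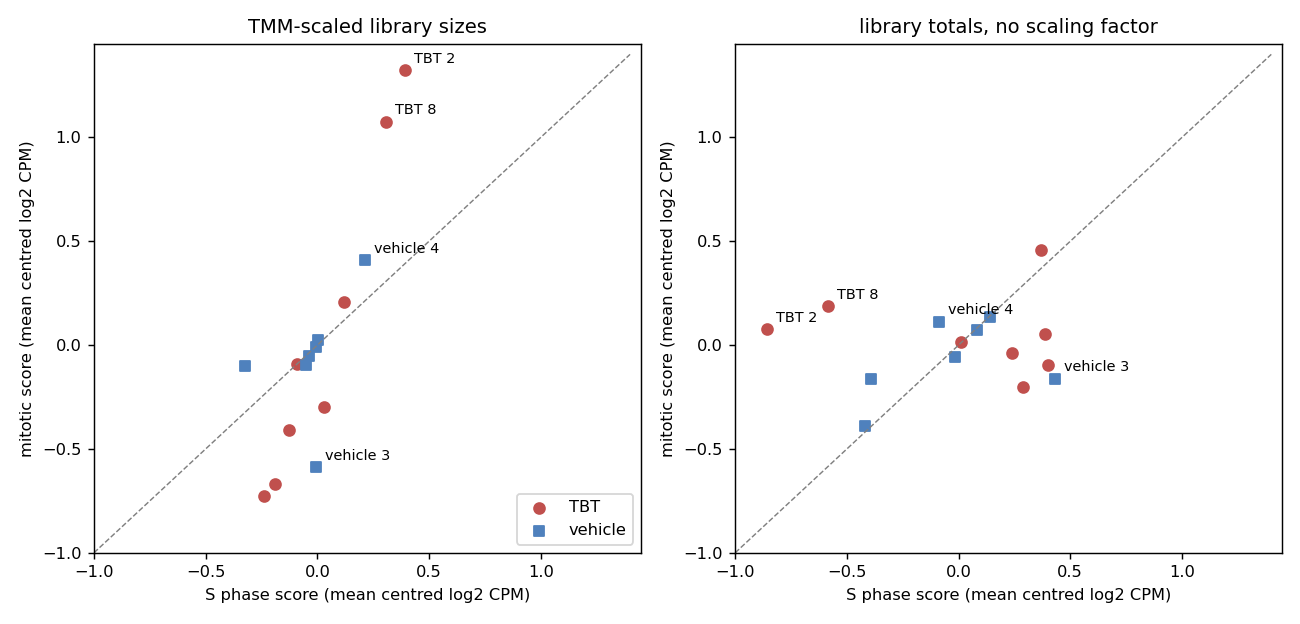
Mitotic score (vertical axis) against S phase score (horizontal axis), each a mean of centred log2 CPM, for 8 TBT and 7 vehicle libraries, with TMM-scaled sizes on the left and library totals on the right; the dashed line marks equal scores. TBT 2 and TBT 8 lie farthest above the line in both panels, by 0.93 and 0.77 on the left, and vehicle 3 lies 0.58 below it.

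Markers of blood cell types moved with these 2 libraries too, and their part in the result was not tested. As summed CPM of all counts, the 9 erythroid markers took 541189 in TBT 2 and 477219 in TBT 8, against 305111 to 399802 in the other TBT and 313816 to 467839 in the vehicle libraries. The 10 early erythroid markers took 1363 and 1075 CPM, within the 553 to 1807 CPM of the others. Most of that sum was Car2, with 9582 and 7999 counts. The transferrin receptor gene Tfrc, on the same list, had 1071 and 1466 counts. As a share of all counts Tfrc was higher in both than in any other library, which held for no other gene of that list. Kit, also on it, had 13 and 2 counts, against 16 to 37 in the other libraries. Platelet markers took 7047 and 9056 CPM, against 3129 to 8089. Markers of lymphocytes and mature neutrophils took small shares in both, on a scale where 55.8% of all tested genes had both below all other libraries. T cell markers were at 53.4 and 50.7 CPM against 91.5 to 298, and B cell markers at 255 and 360 CPM against 854 to 2391. Mature neutrophil markers were at 251 and 188 CPM against 423 to 1142. NK and cytotoxic markers took 23.2 and 32.8 CPM against 34.7 to 145, and plasma cell markers 13.5 and 21.6 CPM against 26.7 to 70.7. Monocyte markers took 589 and 762 CPM against 706 to 1498, so the sum for TBT 8 lay inside that range. F13a1, part of this sum, had its most counts in TBT 8 (3098) and raised it there. As shares of all counts, Ccr2, Cx3cr1, Ms4a4c and Itgal of this list were lower in both than in any other library. Ly6c2 and Csf1r were lowest in TBT 2, and in TBT 8 they lay inside the range of the others. Hepatocyte markers (26.4 and 197 CPM against 2.39 to 692) and immature neutrophil granule markers (8.36 and 16.1 CPM against 8.14 to 322) varied widely in all groups. No marker was at 0 in every library, and 6 hepatocyte, 5 immature neutrophil and 2 plasma cell markers were at 0 in some. In shares of RNA from whole blood, fewer cells of a type, less RNA per cell and more RNA from other cells cannot be told apart.

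The comparison of TBT with vehicle asks whether transcripts differed in adult blood of offspring after exposure of the mother. No cell cycle gene differed by the test. edgeR's quasi-likelihood test called 0 of the 36 genes at an adjusted p under 0.05, and 0% of all 13364 genes (DESeq2 called 19 genes, 0.142%, and limma-voom 22 genes, 0.165%, none of them among the 36). At an unadjusted p under 0.05 it took 0 of the 36, against 6.33% of all tested genes. Log2 fold changes were above 0 for 30 and below 0 for 6 of the 36, where 59.4% of all tested genes were above 0. The median was 0.04 over S phase genes (11 of 16 above 0) and 0.25 over mitotic genes (19 of 20 above 0), beside 0.05 over all tested genes. On library totals 28 of the 36 were above 0, as were 75.8% of all tested genes. The S phase median was then 0.17 (12 of 16 above 0) and the mitotic median 0.10 (16 of 20 above 0), beside 0.14 over all tested genes, so on this scale the mitotic genes did not stand above the rest. TBT and vehicle libraries overlapped for every one of the 40 genes, and 0.112% of tested genes had groups that did not overlap.

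Pcna and Ccna2 had the smallest p of their classes. Mean Pcna was 12.4 ± 1.62 CPM over TBT libraries (SD, n = 8) and 14.3 ± 1.77 CPM over vehicle libraries (SD, n = 7), and the fitted log2 fold change was -0.20 (SE 0.106; 95% interval -0.43 to 0.02; edgeR adjusted p = 0.825). Mean Ccna2 was 36.4 ± 32.1 and 20.7 ± 3.58 CPM, with a log2 difference of 0.78 (SE 0.406; -0.08 to 1.64; edgeR adjusted p = 0.826). The width of these intervals shows how unequal the precision was on the TMM scale. For Mcm6 the interval ran from -0.18 to 0.17 around -0.01, while for Mki67 it ran from -0.51 to 1.23 around 0.36 (SE 0.411; edgeR adjusted p = 0.964). Cdt1 (-0.22, SE 0.171), Mcm5 (-0.17, SE 0.165) and E2f1 (0.48, SE 0.436) had the next smallest p among S phase genes, with edgeR adjusted p of 0.904, 0.949 and 0.945. Ndc80 (0.26, SE 0.215), Birc5 (0.65, SE 0.570) and Aurka (0.26, SE 0.255) had them among mitotic genes, with edgeR adjusted p of 0.920, 0.940 and 0.958. For the other genes with full statistics for their level per kb, the log2 fold changes were 0.18 (SE 0.364) for Ube2c, 0.23 (SE 0.363) for Nusap1, 0.44 (SE 0.441) for Ccne2, 0.34 (SE 0.338) for Mcm3 and 0.04 (SE 0.119) for Mcm4, with edgeR adjusted p from 0.960 to 0.988. Top2a (0.32, SE 0.363) and Mcm2 (0.14, SE 0.150) both had an edgeR adjusted p of 0.964.

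On the TMM scale the direction of the mitotic genes rested on TBT 2 and TBT 8. Without these 2 libraries 18 of 20 mitotic genes were below 0, as were 47.1% of all tested genes, with a median log2 fold change of -0.32, while the S phase median was -0.02 (9 of 16 below 0). No gene of the set was called (smallest edgeR adjusted p = 0.131, Bub1b), although 3.39% of all tested genes were (0.0515% when vehicle 6 was left out as well). At an unadjusted p under 0.05, 7 of the 36 genes were lower in TBT and 0 higher, against 11.3% and 8.37% of all tested genes. Bub1b stood at 14.3 ± 3.41 CPM in the 6 TBT libraries and 21.98 ± 7.27 CPM in vehicle, with a log2 difference of -0.62 (SE 0.224). Tpx2 (-0.59), Kif11 (-0.47), Nusap1 (-0.46), Kif23 (-0.36), Mcm3 (-0.32) and Pcna (-0.24) were the others. With vehicle 6 left out as well, only Bub1b, Mcm3 and Pcna stayed under 0.05. Mki67 moved from 0.36 to -0.44, Ccne2 from 0.44 to -0.44 and Ccna2 from 0.78 to -0.05, whereas Pcna, Cdt1, Mcm5, Mcm2, Ndc80 and Aurka kept their sign in all 24 alternatives run for them. Leaving out TBT 2 alone brought the mitotic median to -0.05, and leaving out TBT 8 alone to 0.07.

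**Figure D4:**
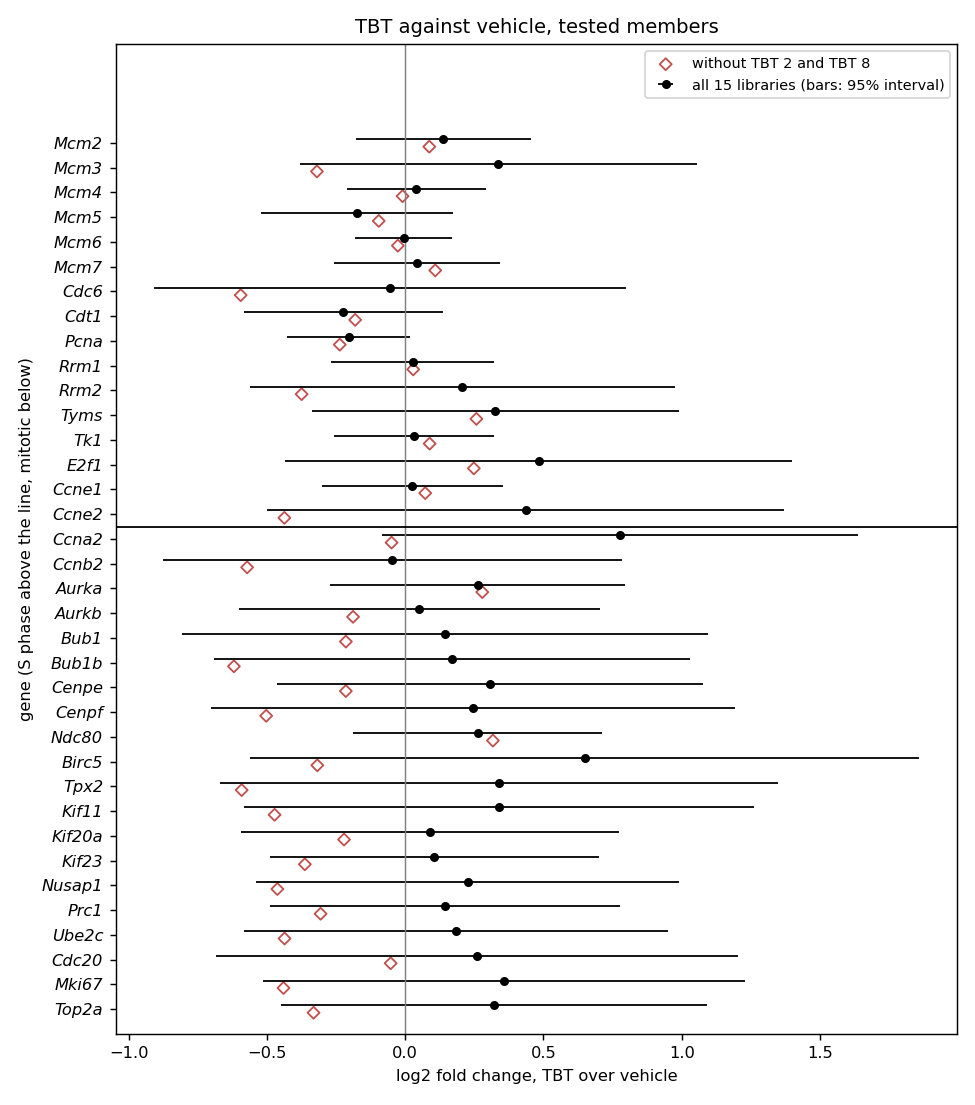
Log2 fold change of TBT over vehicle (horizontal axis) for the 36 tested genes (vertical axis), with all 15 libraries (filled circles, bars 95% intervals) and without TBT 2 and TBT 8 (open diamonds). All 36 bars include 0, and 18 of 20 mitotic diamonds lie below 0, while S phase diamonds scatter on both sides.

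Which genes varied together was asked with Mki67, the usual marker of dividing cells, as the reference. Since TBT 2 and TBT 8 form a cluster of their own, Pearson's r on log2 CPM was taken over the other 13 libraries (6 TBT, 7 vehicle), with permutation p-values adjusted over 35 relations. It passed for 10 of 19 mitotic and 3 of 16 S phase genes. Tpx2 had the highest r, 0.912 (Spearman's rho 0.890; permutation p = 4e-05; adjusted p = 0.00117), then Top2a with 0.876, Nusap1 with 0.871, Bub1b with 0.851 and Ccna2 with 0.839. Within the groups r for Tpx2 was 0.916 in TBT and 0.879 in vehicle, and with the 2 libraries of most extreme Mki67 left out it was 0.845. For Ube2c (r = 0.686) the relation rested on such libraries, since r was 0.199 without 2 of them.

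The S phase genes that passed were Rrm2 (r = 0.820), Ccne2 (0.756) and Mcm3 (0.746), the same 3 genes that were highest in TBT 2 and TBT 8, although those libraries took no part. For Rrm2, r was 0.439 without the 2 farthest libraries, and for Mcm3 it was 0.821. Their partners were not positively related to Mki67. Mcm6 had r = -0.419 (permutation p = 0.153; adjusted p = 0.268), Ccne1 and Mcm2 had negative r, and Cdt1 had r = -0.565 (rho -0.670; permutation p = 0.0453; adjusted p = 0.0933), with -0.869 within TBT and -0.852 within vehicle. Whether these relations pass depends on the scaling. On library totals over the same 13 libraries 0 of 35 passed, with r of 0.765 for Tpx2, 0.381 for Ccne2, 0.137 for Mcm3 and -0.638 for Cdt1. On the TMM scale, 6 of the 10 mitotic genes and all 3 S phase genes passed by Spearman's rho as well as by r.

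**Figure D5:**
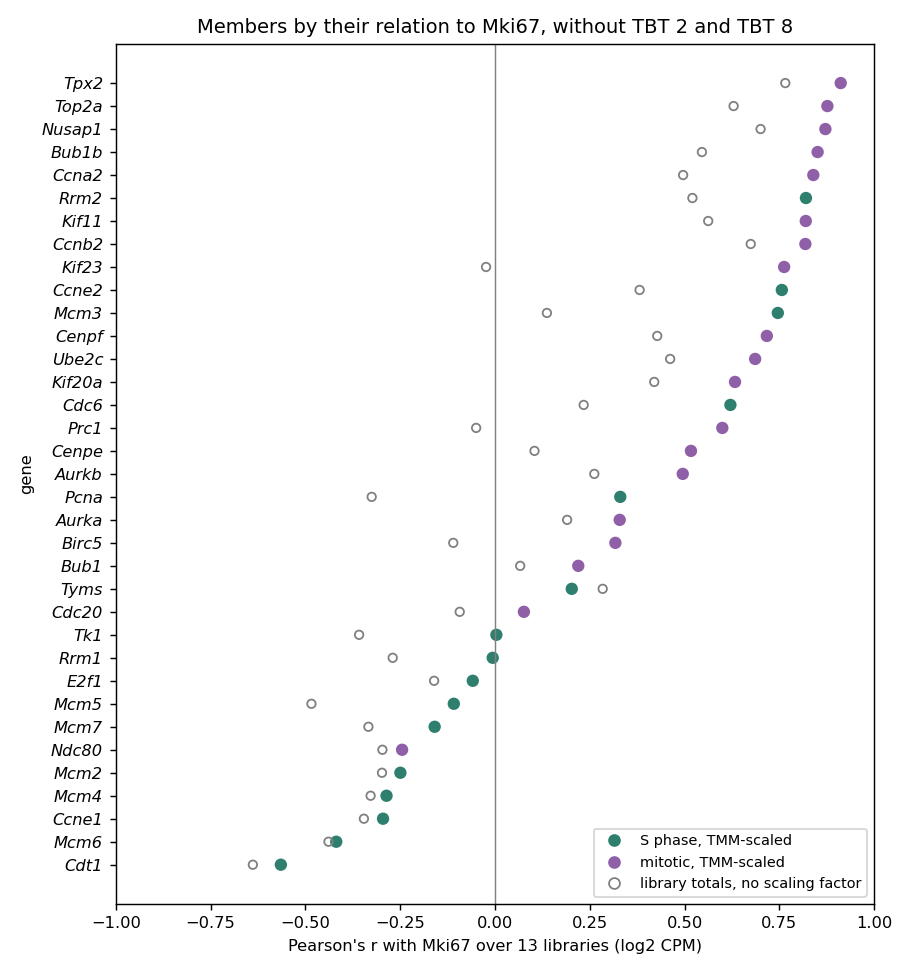
Pearson's r with Mki67 (horizontal axis) of 35 tested genes (vertical axis) over 13 libraries, on TMM-scaled log2 CPM (filled, coloured by class) and on library totals (open). Filled circles run from 0.912 for Tpx2 to -0.565 for Cdt1; most open circles lie to the left of the filled ones.

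Among 10 single markers of blood cells, Mki67 passed with Alas2, the red cell enzyme that starts haem synthesis (r = 0.918; rho 0.852; permutation p = 1e-05, the smallest these permutations can give; adjusted p = 2e-04 over 20 relations), and with Tfrc (r = 0.889; rho 0.687; adjusted p = 0.0012). Within the groups r for Alas2 was 0.920 in TBT and 0.925 in vehicle, and without the 2 farthest libraries it was 0.819. On library totals r was 0.769 for Alas2 (adjusted p = 0.019) and 0.601 for Tfrc (adjusted p = 0.0725). Mcm2 passed with none of the 10 on the TMM scale, and r was -0.286 with Alas2 and 0.440 with Cd3e, the T cell gene. On library totals over the same 13 libraries Mcm2 passed with 4 of the 10, so this too depends on the scaling.

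The other genes of the cell cycle gave the same absence of calls. Of 100 further genes in 4 lists, 89 were tested and edgeR, DESeq2 and limma-voom each called 0, with 58 above and 31 below 0 in edgeR (59.4% of all tested genes were above) and 6 at an unadjusted p under 0.05, beside 6.33% of all tested genes. In the list of entry genes 13 of 19 were above 0, led by Tfdp1, the E2F partner (0.37, SE 0.153), and Rbl1, the pocket protein p107 (0.27, SE 0.120). Inhibitors had 6 of 9 above 0, with Fbxo5, which holds the anaphase ligase back, at -0.32 (SE 0.228) and Gmnn, which binds CDT1, at 0.36 (SE 0.349). Replication genes had 15 of 28 above 0, with Gins4, a subunit of the replicative helicase, at -0.38 (SE 0.129) and Orc3, of the origin recognition complex, at 0.23 (SE 0.109). Further mitotic genes had 24 of 33 above 0, with Ncaph, a condensin subunit, at -0.48 (SE 0.258) and the spindle motor gene Kif15 at 0.52 (SE 0.376). Kif15 was at -0.13 without TBT 2 and TBT 8. Without these libraries 3 of the 89 passed, against 3.39% of all tested genes: Orc3 at 0.32 (edgeR adjusted p = 0.0425), Dut, which keeps uracil out of DNA, at -0.61 (adjusted p = 0.0461) and Cdc25b, a phosphatase that activates CDK1, at -0.56 (adjusted p = 0.0479). Dut and Cdc25b are named because they passed here.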

How the data were processed

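The members and the gene lists were chosen with earlier results of these data known. Blood RNA was purified on RNeasy columns with DNase and sequenced from stranded total RNA libraries, per the labels' protocols, which can hold unspliced RNA. Per the submitters' processing notes, Trim Galore, HISAT2, featureCounts and the build mm10 were used, with versions, annotation and strand option not given in the sources used here. Values are counts that the authors deposited: whole numbers per gene, without normalization. Depth was 6.03 M to 11.99 M counts per library.

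Columns were matched to samples by the description label, and no count was altered. The 15 libraries (8 TBT, 7 vehicle) were fitted in R 4.3.3 by edgeR 4.0.16 (filterByExpr by group, TMM, robust quasi-likelihood fit, no covariate), and p-values were adjusted by Benjamini-Hochberg over all 13364 tested genes at 0.05. Standard errors came from the F statistic. Level per kb used union exon length from GENCODE release 21 of mouse (M21), to which 55450 identifiers matched. Scores used log2 CPM with a prior count of 2. Correlations used 100000 permutations. They had been planned over all 15 libraries and are reported over 13, because TBT 2 and TBT 8 form a separate cluster. The edgeR fit was tested on simulated counts, with the same gene proportions in every library apart from changes set between the groups. That test does not cover a shift like the one behind the low TMM factors of TBT 2 and TBT 8. The labels do not say that each library came from its own litter or extraction, so p-values measure the spread between these samples.

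All 40 members are given by level or, for Plk1, Kif20a and Cdc20, by counts only. Full statistics are given for the 4 tested members of each class with the highest level per length and the 4 of each class with the smallest unadjusted p. They are also given for Mki67, Top2a, Mcm2 and Pcna, and in each other list for the 2 genes with the smallest unadjusted p. Cdk1 and Ccnb1 were to be included but were not tested, so only their levels are given. Bub1b, Tpx2, Kif11 and Kif23, Rrm1, Rrm2, Mcm6 and Ccne1 were singled out in the text after their values were seen. Alternatives were RLE size factors, no filter, DESeq2 1.42.0, limma-voom (limma 3.58.1) with sample quality weights, a replicate block, haemoglobin genes left out, and each library and TBT 2 with TBT 8 left out. Library totals without scaling factors and leaving out vehicle 6 as well were added after seeing the data. Pairs of libraries with the same number correlated from -0.235 to 0.506, and 1 of 7 matched its own number best, so numbers were not treated as pairs.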

Additional observations from a re-analysis of the deposited data

Results flagged for a closer look

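Each group of 7 or 8 libraries was checked for a single value far from the rest, in 38 groups of values for the named genes and the S phase less mitotic measure. Such a gap was found in 5 of them, where chance gives about 1 in 20. Pcna was highest in TBT 8, at 15.8 CPM, above the other 7 TBT libraries (9.93 to 12.5 CPM) and within the vehicle range. Ccnb1 was highest in TBT 2, at 2.63 CPM, against 0.330 to 0.865 CPM in the other TBT libraries, and rests on few counts. Nusap1 was lowest among vehicle libraries in vehicle 3, the mouse with a tumor label, at 177 CPM, and the next was at 224 CPM. Vehicle 3 also had the highest S phase less mitotic value of its group, 0.58, and the next was 0.05. Aurka was lowest among vehicle libraries in vehicle 5, at 0.621 CPM, and the next was at 1.25 CPM. With 1 mouse carrying the tumor label, no test of that label can be made.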

How the results depend on the processing

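No gene of the set was called under any of the alternatives. Over all genes, 2 were called without the filter, 19 by DESeq2, 22 by limma-voom, 462 without TBT 2 and TBT 8, and 7 when vehicle 6 was left out too; the cause was not tested. With the number in the label as a replicate block (7 numbers, 14 libraries) 0 genes were called, and the mitotic median was -0.12; the block changed no call. Signs turned in 40 cases. On library totals Ube2c was at -0.076 and Nusap1 at -0.048. With limma-voom Ccne2 was at -0.34, Mcm3 -0.25, E2f1 -0.075, Ube2c -0.32, Nusap1 -0.37, Mki67 -0.40, Birc5 -0.21 and Top2a -0.35. With the block Ccne2 was at -0.07, Mcm3 -0.031, Ube2c -0.24, Nusap1 -0.26, Mki67 -0.21 and Top2a -0.10. Without TBT 2 and TBT 8, Ccne2 was at -0.44, Mcm3 -0.32, Mcm4 -0.01, Ube2c -0.44, Nusap1 -0.46, Mki67 -0.44, Ccna2 -0.05, Birc5 -0.32 and Top2a -0.33. Without vehicle 6 as well these were -0.43, -0.34, -0.061, -0.49, -0.47, -0.41, -0.066, -0.33 and -0.30. Leaving out each library in turn gave -0.012 to 0.59 for Ccne2, 0.012 to 0.47 for Mcm3, -0.036 to 0.081 for Mcm4, 0.32 to 0.80 for E2f1, -0.14 to 0.31 for Ube2c, -0.16 to 0.35 for Nusap1, 0.048 to 0.48 for Mki67, 0.36 to 0.89 for Ccna2, 0.14 to 0.94 for Birc5 and 0.048 to 0.43 for Top2a. The negative values came without TBT 2, and for Mcm4 also without TBT 4 or vehicle 6. The count of genes related to Mki67 was 20 of 35 over 15 libraries, 13 without TBT 2 and TBT 8, and 7 over 15 on library totals; for cell markers it was 4, 2 and 10 of 20. With the longest transcript as length the mitotic to S phase level ratio was 0.762. In a window of 100 bases before the start to 50 after, CHR letters were in 1 S phase promoter, and E2F letters in 5 S phase and 1 mitotic promoter, while CHR stayed at 15 mitotic promoters. Low counts limit Cdk1, Ccnb1, Plk1, Gins2, E2f1 and Cdc20, and the interval of a typical gene reached 0.41 on the log2 scale to either side.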
